A study of Rattus norvegicus with 6 samples.

Results

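Apolipoproteins and the genes that handle lipoproteins were followed in the mRNA of cultured cortical neural progenitors from the rat. The group holds 10 genes, which are *Apoe*, *Apod*, *Clu*, *Apoc1*, *Apoa1*, *Apob*, *Lpl*, *Lrp1*, *Abca1* and *Abcg1*. They were selected by symbol, with their levels in these same libraries already known, so that their levels and differences are a description and carry no test. All 10 were present among the 17337 gene names of the expression tables.

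The progenitors came from the cortex of Sprague Dawley rats at embryonic day 14. They were grown with the StemPro neural supplement, bFGF and EGF and were collected after the second passage. There was 1 condition, with no treated, mutant or control group, and 2 biological replicates, A and B, each with 2 technical libraries, named A1 and A2 or B1 and B2. A passaged culture of this kind can hold several cell types, and the methods describe no sort. The 2 Start-seq samples of the series were not analysed here.

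Apolipoproteins are the protein coat of lipoprotein particles, which carry cholesterol and phospholipid through body fluids. In the brain, where the lipoproteins of the blood do not enter freely, glial cells secrete particles built on ApoE and clusterin, the transporters ABCA1 and ABCG1 load them with lipid, and receptors of the LDL receptor family, LRP1 among them, take them up. ApoB and ApoA-I are the main proteins of the lipoproteins of the blood and are made chiefly by liver and intestine.

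Levels are in FPKM, fragments per kilobase of transcript and per 1000000 mapped fragments, a unit that allows genes to be compared with each other, and positions of genes are those of rn6. Technical libraries were averaged within a replicate, and means and SD are over the 2 replicates. The deposited read coverage that corresponds to 1 FPKM was 24.3 and 22.7 in A1 and A2, but 24.4 and 6.83 in B1 and B2, so that B2 was read at 28.1% of the depth of B1. All 9 neural progenitor markers examined were above 10 FPKM, with *Sox2* at 478 ± 137 (SD, n = 2). The 12 meningeal and mesenchymal markers examined, which mark other cells of the embryonic head, summed to 751 and 736 FPKM in the libraries of A and to 2708 and 4099 in those of B. All 12 were higher in both libraries of B than in both libraries of A. The astrocyte marker *Gfap* was at 571 ± 127 FPKM, and none of the 7 astrocyte markers examined had a mean below 1 FPKM.

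The RefSeq promoter windows that bear on the most abundant members and on the lipid exporter are shown first. *Apod* and *Abca1* carry a TATA-like element near the start. *Apoe* carries one at a distance that depends on the annotated start used. Each window runs from 250 bases before to 50 bases after an annotated start on the GRCr8 build, which differs from the rn6 build of the expression tables, and is written 5′ to 3′ on the strand of the gene. Capitals mark every TATAA on either strand.
Apod, plus strand, chr11:82935970-82936269: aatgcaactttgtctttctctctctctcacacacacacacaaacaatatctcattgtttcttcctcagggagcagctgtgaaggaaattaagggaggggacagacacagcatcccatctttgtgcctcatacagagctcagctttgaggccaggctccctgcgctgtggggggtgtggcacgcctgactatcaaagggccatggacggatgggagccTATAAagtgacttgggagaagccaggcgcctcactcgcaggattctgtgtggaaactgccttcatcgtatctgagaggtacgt
Abca1, minus strand, chr5:72596424-72596723: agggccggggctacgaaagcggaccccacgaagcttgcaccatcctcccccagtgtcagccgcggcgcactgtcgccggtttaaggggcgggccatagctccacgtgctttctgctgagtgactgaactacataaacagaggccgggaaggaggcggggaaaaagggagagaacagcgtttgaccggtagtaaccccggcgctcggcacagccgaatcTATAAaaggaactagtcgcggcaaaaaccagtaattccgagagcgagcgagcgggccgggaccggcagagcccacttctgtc
Apoe, minus strand, chr1:88484650-88484949: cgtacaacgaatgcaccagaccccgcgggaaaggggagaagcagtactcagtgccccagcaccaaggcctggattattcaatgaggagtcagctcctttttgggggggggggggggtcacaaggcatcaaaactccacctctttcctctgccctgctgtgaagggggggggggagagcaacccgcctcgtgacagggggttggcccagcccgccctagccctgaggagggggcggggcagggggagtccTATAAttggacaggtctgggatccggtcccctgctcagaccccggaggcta
The TATAA of *Apod* begins 33 bases before the annotated start and that of *Abca1* 32 bases before it. In the *Apoe* window shown, TATAA begins 1 base before the annotated start. The same TATAA begins 180 bases before the start of another *Apoe* window, and a further *Apoe* window holds none. A window of *Apoc1* holds a TATAA 191 bases before its start. TATAA anywhere on either strand was present in 26.2% of all windows. The authors moved many annotated starts of rn6, and the starts used here were not tested. RefSeq windows were matched for 5 of the 10 genes, with 8 windows in all, and those of *Apoa1*, *Apob*, *Clu*, *Lpl* and *Abcg1* are not shown. A TATAA on the strand of the gene, lying 40 to 20 bases before the start, was present in 2 of the 8 windows. Over all 33469 windows the share was 2.17%. GGGCGG, the core of the GC box, was present on either strand in 6 of the 8 windows and in 33.1% of all windows. Some windows of *Apoe* overlap each other, as do those of *Apoc1*, and a match of letters is not evidence of binding.

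*Apoe* was the most abundant of the 10 genes. It encodes the principal apolipoprotein of the brain and is annotated at chr1:80612894-80616820 of rn6, on the minus strand. Its level was 2768 and 3031 FPKM in A1 and A2, and 3284 and 1665 FPKM in B1 and B2. The libraries of B enclosed those of A, and B1 and B2 stood further apart than the replicates did. The mean was 2687 ± 301 FPKM (SD, n = 2), which ranked 9 among all 17337 gene names. In the single libraries its rank was 7 and 8 for A1 and A2 but 7 and 41 for B1 and B2.

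*Apod* was next in the order. It encodes a lipocalin that binds small lipids and is found on particles of high density, and it is annotated at chr11:72705204-72726263, plus strand. The libraries of A held 165 and 187 FPKM, B1 held 264 and B2 held 580. Every library of B was above every library of A, and B2 was 2.20 times B1. The mean was 299 ± 174 FPKM, rank 281.

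*Clu* encodes clusterin, or ApoJ, a secreted chaperone that is also carried on brain lipoproteins. The gene is at chr15:42626612-42665848, plus strand. It measured 215 FPKM in A1 and 236 in A2, against 135 in B1 and 170 in B2. Here the libraries of A were above those of B. The mean was 189 ± 51.4 FPKM, rank 516.

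*Apoc1*, which lies next to *Apoe*, encodes a small protein that hinders the uptake of particles by receptors. It is at chr1:80606638-80609921, minus strand. A1 and A2 held 26.6 and 28.8 FPKM, and B1 and B2 held 28.5 and 11.2. The first 3 libraries were close together and B2 was low, so A and B overlapped. The mean was 23.8 ± 5.58 FPKM.

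The apolipoproteins of the blood lipoproteins were at low levels. *Apoa1*, at chr8:50525091-50526875 on the plus strand, measured 2.48 and 2.24 FPKM in the libraries of A, against 1.05 in B1 and 0.804 in B2. Both libraries of A were above both of B, and the mean was 1.64 ± 1.01 FPKM. *Apob*, at chr6:33176826-33216380 on the plus strand, was at 0.0157, 0.0239, 0.00271 and 0.0200 FPKM in the same order. It was the only member with a mean below 1 FPKM, and its coverage was 0.383, 0.544, 0.0661 and 0.136 in the 4 libraries, less than 1 read deep on average. *Alb*, the hepatocyte gene for albumin, was at 0.679 ± 0.384 FPKM, and 5 of the 6 hepatocyte markers examined had a mean below 1. The exception was *Ttr*, the gene for transthyretin, which choroid plexus also makes. It was at 80.7, 82.6, 26.4 and 3.03 FPKM. Like *Apoa1*, 5 of the 6 hepatocyte markers, *Ttr* and *Alb* among them, were higher in both libraries of A. The libraries overlapped for the other marker, *Fgb*. The part of these cell types in the level of *Apoa1* was not tested.

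Among the 4 members that act on the particles, the uptake receptor *Lrp1* was the most abundant. It encodes a large endocytic receptor for ApoE-bearing particles and many other ligands, and is at chr7:70846344-70926903, minus strand. It was found at 43.2 and 36.4 FPKM in A1 and A2, and at 46.6 and 63.6 FPKM in B1 and B2. The libraries of B were above those of A, though A1 and B1 were close. The mean was 47.5 ± 10.8 FPKM, rank 2303.

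The exporters were both expressed, and *Abca1* was the higher of the pair. ABCA1 passes cholesterol and phospholipid to poorly lipidated apolipoproteins, and its gene is at chr5:69860747-69952466, minus strand. *Abca1* was at 33.6 FPKM in A1 and 24.0 in A2, then at 14.6 in B1 and 26.7 in B2, a mean of 24.8 ± 5.78. The libraries of A and B overlapped, and B1 was the lowest. *Abcg1*, whose product passes cholesterol to particles already formed, is at chr20:9743269-9840489, plus strand. It was at 4.14, 3.64, 3.77 and 3.46 FPKM in A1, A2, B1 and B2, a mean of 3.75 ± 0.196. It was the most even of the 10 genes, with a ratio of 1.20 between its highest and lowest library.

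*Lpl* encodes lipoprotein lipase, which releases fatty acids from the triglyceride of particles. The gene is at chr16:22537687-22561487, minus strand. FPKM values were 0.622 and 0.569 for replicate A, and 2.09 and 1.72 for replicate B. Both libraries of B were above both of A. The mean was 1.25 ± 0.927 FPKM, close to the limit of 1 FPKM used for counts of genes.

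**Figure D1:**
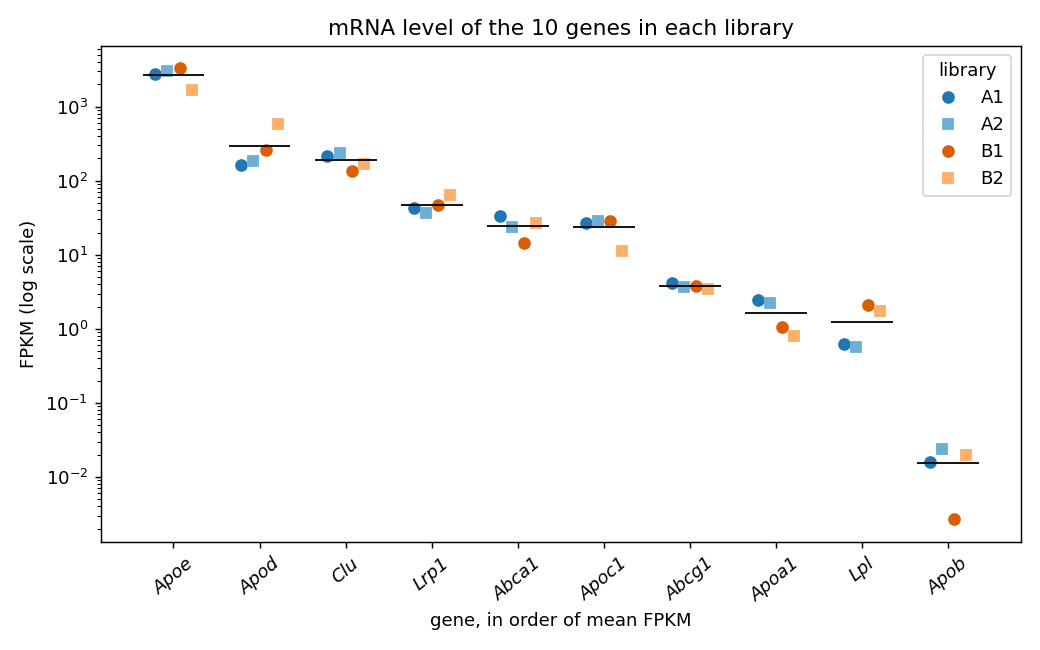
FPKM of the 10 genes, on a log scale, in each of the 4 libraries (points, with colour for the replicate and shape for the technical library), with a bar at the mean over the 2 replicates. *Apoe* stands above all others in each library and *Apob* below all others, and *Apod* and *Lpl* are higher in both libraries of B.

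In order of mean FPKM the genes were *Apoe*, *Apod*, *Clu*, *Lrp1*, *Abca1*, *Apoc1*, *Abcg1*, *Apoa1*, *Lpl* and *Apob*. Of the 9 pairs of neighbours in this order, 6 did not overlap in any library. The mean of *Apoe* was 8.98 times that of *Apod*, the mean of *Clu* was 3.98 times that of *Lrp1*, and the mean of *Apoc1* was 6.33 times that of *Abcg1*. *Apod* and *Clu* overlapped and stood in this order in 2 of the 4 libraries. *Abca1* and *Apoc1* also overlapped, as did *Apoa1* and *Lpl*. *Lrp1* and *Abca1* were separated narrowly, with 36.4 FPKM in the lowest library of *Lrp1* and 33.6 in the highest of *Abca1*. The mean reached 1 FPKM for 9 of the 10 genes, 10 FPKM for 6 and 100 FPKM for 3.

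The difference between the replicates was then taken for the 9 members whose mean reached 1 FPKM. A gene was counted as differing where the replicate means of log2(FPKM + 1) were at least 1 apart and the libraries of A and B did not overlap. The pseudocount makes this scale understate differences of low genes. By this rule 4.58% of the 10481 genes examined were higher in B and 1.57% were higher in A. Of the members, 1 of 9 was counted, *Apod*, which was higher in B by 1.15 on the log2 scale, or 2.40 times by the ratio of replicate means in FPKM. Without B2 the ratio for *Apod* was 1.50 and no member was counted. In bulk RNA, fewer cells of a type and less RNA per cell cannot be told apart.

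Markers of several cell types also differed between A and B. Of the 12 meningeal and mesenchymal markers, 11 were counted as higher in B, with a median difference over the list of 1.94 on the log2 scale, and 11 were higher in B2 than in B1. The collagen gene *Col1a1* was at 169, 157, 685 and 785 FPKM in A1, A2, B1 and B2. Some other markers of this list differed far more between B1 and B2. *Ptgds* was at 8.18 and 292 FPKM, *Foxc1* at 29.4 and 115, *Aldh1a2* at 71.2 and 369 and *Igf2* at 131 and 399. *Lum* was the marker lower in B2, at 147 FPKM in B1 and 133 in B2. *Fabp7*, a fatty acid binding protein of radial glia, and *Hes5*, a Notch target, were the 2 of 9 neural progenitor markers counted as higher in A. The mean was higher in A for 6 of the 9 and higher in B for the other 3, *Nes*, *Vim* and *Slc1a3*, which were not counted. *Fabp7* was at 16800 and 18557 FPKM in A and at 6520 and 5485 in B. Among markers of other cell types, *Pdgfra* of the oligodendrocyte lineage and *Aqp1* of choroid plexus were counted as higher in B. *Ttr* and *Otx2* of choroid plexus were counted as higher in A. So was *S100b*, 1 of the 7 astrocyte markers, while the mean of log2 values was higher in B for 4 of the 7, none of them counted, and the median difference of that list was 0.15. The part of these cell types and of the depth of B2 in the difference of *Apod* was not tested.

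The libraries of A and B did not overlap for 5 of the 9 members, whatever the size of the difference, against 60.1% of the 10481 genes. *Apod*, *Lrp1* and *Lpl* were higher in B, and *Clu* and *Apoa1* were higher in A. The ratio of replicate means in FPKM was 3.20 for *Lpl* and 1.38 for *Lrp1*, both B over A, and 1.48 for *Clu* and 2.55 for *Apoa1*, both A over B. On the log2(FPKM + 1) scale the differences of B from A were 0.86 for *Lpl*, 0.45 for *Lrp1*, -0.57 for *Clu* and -0.80 for *Apoa1*. *Apoe* at -0.31, *Abca1* at -0.50, *Apoc1* at -0.60 and *Abcg1* at -0.08 had overlapping libraries. Without B2 *Apoe* was at 0.18 and *Apoc1* at 0.04, so that their direction turned, and *Abca1* ran from -0.91 without B2 to -0.09 without B1. The median of the 9 members was -0.31, beside -0.03 over all genes examined, and it was 0.04 without B2, beside -0.01 over all genes.

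Among the same 9 members the technical libraries of B differed most for *Apoc1*, *Apod* and *Apoe*. Between A1 and A2 the members differed by 1.08 to 1.40 times, with a median of 1.11, and the median over all genes examined was 1.09. Between B1 and B2 the range was 1.09 to 2.54 times, with a median of 1.37 against 1.19 over all genes. *Apoc1* in B2 was 0.393 of its level in B1, a ratio as low or lower in 0.687% of the genes examined. *Apoe* in B2 was 0.507 of its level in B1, with 1.58% of the genes as low or lower. *Apod* moved the other way at 2.20, with 2.81% of the genes as high or higher. The coverage was 68544 in B1 and 9746 in B2 for *Apoe*, and 604 in B1 and 66.0 in B2 for *Apoc1*. The part of depth in these ratios was not tested.

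The make-up of the members' summed level followed these values. *Apoe* made up 85.0% and 85.4% of it in A1 and A2, and 86.9% and 66.0% of it in B1 and B2, a mean of 80.8% ± 6.17 (SD, n = 2). *Apod* made up 5.07%, 5.27%, 6.98% and 23.0% in the same libraries, and *Clu* 6.58%, 6.64%, 3.57% and 6.74%. B2 thus stood apart in the shares of *Apoe* and *Apod*, and B1 in that of *Clu*. In the same libraries the ratio of *Apoe* to *Apod* was 16.8, 16.2, 12.5 and 2.87. The ratio of *Abca1* to *Abcg1* was 8.13, 6.60, 3.88 and 7.71, above 1 throughout. By TPM, the deposited unit that sums to the same total in each library, the 10 genes together held 0.572%, 0.590%, 0.618% and 0.420% of the total in the same order.

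**Figure D2:**
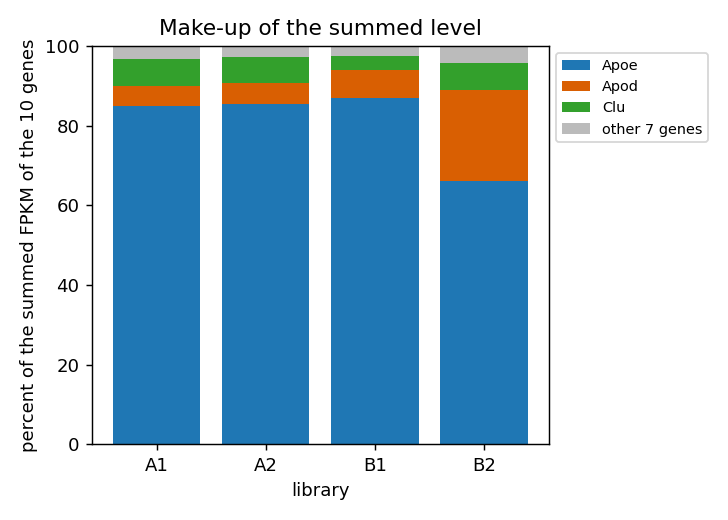
Stacked bars of the percent of the summed FPKM of the 10 genes that *Apoe*, *Apod*, *Clu* and the other 7 genes held in each library. *Apoe* held 85.0% to 86.9% in A1, A2 and B1 and 66.0% in B2, where *Apod* held 23.0%.

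*Apoe* and *Apoc1* lie in the apolipoprotein cluster of chromosome 1, and their neighbours were examined within 50 kb. The cluster is ordered *Clptm1*, *Apoc2*, *Apoc4*, *Apoc1*, *Apoe*, *Tomm40* and *Pvrl2*, all annotated on the minus strand. *Apoc1* lies 2972 bases from *Apoe*, and *Tomm40*, which encodes the channel of the mitochondrial outer membrane import complex, lies 1333 bases from it on the other side. The 3 other apolipoproteins of the cluster were far below *Apoe*, with *Apoc1* at the mean given above, *Apoc4* at 6.15 ± 0.704 FPKM and *Apoc2* below 1 FPKM in every library. The ratio of *Apoe* to *Apoc1* was 104 and 105 in the libraries of A, 115 in B1 and 149 in B2.

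The ratio of B2 to B1, 0.507 for *Apoe* and 0.393 for *Apoc1*, was 0.972 for *Clptm1*, 0.923 for *Apoc4*, 1.07 for *Tomm40*, 1.25 for *Pvrl2* and 2.31 for *Apoc2*, so the flanking genes did not share the low level of B2. *Tomm40* was at 70.0, 79.5, 77.2 and 82.5 FPKM in A1, A2, B1 and B2. *Clptm1*, which encodes a membrane protein, was at 112, 121, 120 and 116 FPKM. *Apoc4* was at 6.12, 7.18, 5.88 and 5.43 FPKM, so that B2 was its lowest library by a small margin. *Pvrl2*, which encodes the adhesion protein nectin-2, was at 18.1 and 18.1 FPKM in A and at 28.3 and 35.3 in B. The coverage per FPKM of *Apoe* was 85.6% to 85.7% of the library median and that of *Apoc1* 86.3% to 87.9%, while the other 8 members were at 100%, and the reason for this was not tested.

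**Figure D3:**
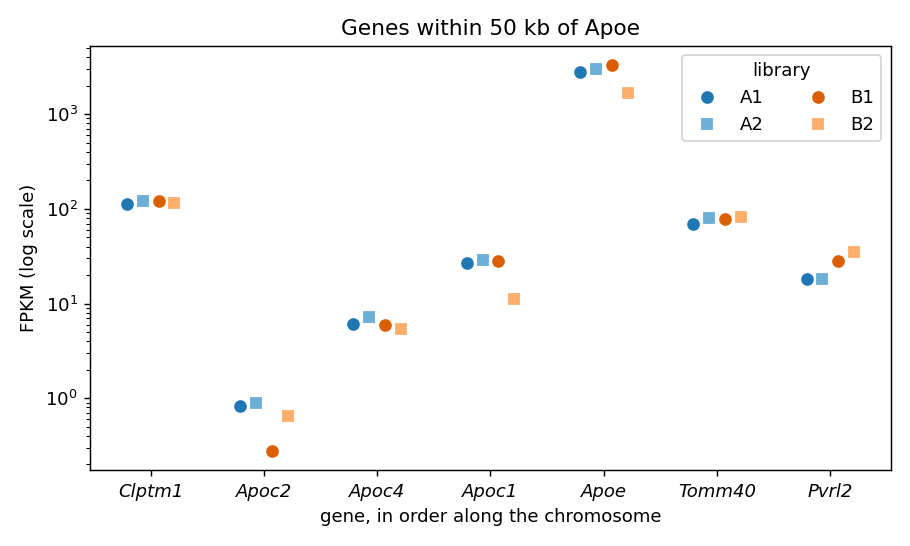
FPKM, on a log scale, of the 7 genes of the *Apoe* cluster in their order along chromosome 1, in each of the 4 libraries (points). *Apoe* stands above its neighbours in every library, and B2 is the lowest library for *Apoe* and *Apoc1* but not for *Tomm40* or *Clptm1*.

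*Apoa1* lies in the other apolipoprotein cluster examined, on chromosome 8. Its apolipoprotein neighbours were lower still, with mean FPKM of 0.0447 for *Apoc3*, 0.0152 for *Apoa4* and 0.150 for *Apoa5*. The flanking genes *Sik3*, which encodes a kinase, and *Bud13*, which encodes a splicing factor, had means of 12.7 and 15.0 FPKM.

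Other genes of lipoprotein handling were taken from 6 lists of 87 genes, chosen from textbook roles. Of these, 77 were listed in the tables, and the mean reached 1 FPKM for 51 and 10 FPKM for 30. By the rule given above 5 of the 51 differed, all higher in B, beside 4.58% of all genes in that direction. Without B2, 2 genes, *Mylip* and *Plin2*, were counted as higher in B and 4 as higher in A. The median difference over the 51 genes was -0.14 on the log2(FPKM + 1) scale, beside -0.03 over all genes.

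Of the 15 other apolipoproteins listed, 10 had a mean below 1 FPKM. The highest were *Apoo* at 30.7 ± 2.11 FPKM and *Apool* at 10.8 ± 0.472, which encode proteins of the mitochondrial inner membrane, and *Apom* at 10.2 ± 0.856, which encodes the carrier of sphingosine 1-phosphate. *Apol3* was the member of this list that differed, at 0.518, 0.472, 1.59 and 4.53 FPKM in A1, A2, B1 and B2. Like *Apod*, it was highest in B2.

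Among receptors of the LDL receptor family and their chaperones and regulators, 17 were listed and the mean reached 1 FPKM for 14. *Lrpap1*, the chaperone of *Lrp1* and its relatives, was at 59.5 ± 1.05 FPKM, *Lrp10* at 56.9 ± 0.375 and *Lrp4*, a receptor of agrin, at 55.1 ± 9.79. These 3 means were above that of *Lrp1*. *Mylip*, which encodes a ubiquitin ligase for receptors of this family, was among those that differed, at 3.60, 3.09, 10.1 and 9.61 FPKM in A1, A2, B1 and B2. It was higher in each library of B than in each library of A.

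The scavenger receptors and other ABC transporters had no gene that differed, among 3 and 6 genes examined, which are too few to set against the 6.15% of all genes that differed in either direction. *Scarb2*, a lysosomal membrane receptor, was at 13.6 ± 1.41 FPKM and *Scarb1*, which takes up cholesteryl ester from particles, at 11.3 ± 3.17. *Cd68*, a lysosomal protein of macrophages, was at 3.82 ± 1.30 FPKM. The other 11 of 12 microglia and macrophage markers examined had a mean below 1 FPKM, and the 12 summed to 6.24, 5.18, 6.71 and 6.28 FPKM in A1, A2, B1 and B2. *Ptprc* was at most 0.0209 FPKM in any library, and *Cx3cr1* was at 0 in 3 of them. In 7 of the 12, all at a mean below 1 FPKM, both libraries of B were above both of A. Both libraries of A were above both of B in 2, *Cd68* and *P2ry12*. The libraries of A and B did not overlap for 60.1% of the 10481 genes examined. *Abca2* was the highest of the other transporters at 16.96 ± 1.45 FPKM, and *Abcg4*, a relative of *Abcg1* in neural tissue, was at 3.76 ± 0.789, beside 3.75 ± 0.196 for *Abcg1*.

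Of the lipases, transfer proteins and lipid droplet genes, 9 reached a mean of 1 FPKM, and the 3 highest were far above *Lpl*. *Pltp*, which moves phospholipid between particles, was at 89.1, 90.7, 37.7 and 83.0 FPKM in A1, A2, B1 and B2, where B1 was the low library. *Lcat*, which esterifies the cholesterol of particles, was at 55.5 ± 12.7 FPKM and *Pnpla2*, the lipase of lipid droplets, at 34.0 ± 1.37. *Lipa*, the acid lipase of lysosomes, and *Plin2*, a coat protein of lipid droplets, differed. *Lipa* was at 10.7, 11.7, 22.6 and 26.9 FPKM and *Plin2* at 8.07, 8.37, 22.7 and 28.6.

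None of the 14 genes of sterol sensing and sterol traffic examined differed by the rule. These 14 are also too few to set against the 6.15% of all genes in either direction. Their median difference was 0.02. Without B2, *Insig1* and *Cyp46a1* of this list were counted as higher in A. *Insig1* was lowest in B1, at 9.77 FPKM, and highest in B2, at 28.9, so its direction rested on B1 alone. *Cyp46a1* was lower in both libraries of B than in both of A. *Npc2*, which carries cholesterol out of lysosomes, was at 157.9 ± 13.5 FPKM. *Srebf1*, a master regulator of lipid synthesis, was at 98.4 ± 15.4 and *Nr1h2* at 78.6 ± 1.36. *Nr1h2* encodes LXR beta, a sterol-sensing receptor that drives *Abca1*, *Abcg1* and *Apoe* in other systems. Its paralog *Nr1h3*, which encodes LXR alpha, had a mean of 0.923 FPKM.

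**Figure D4:**
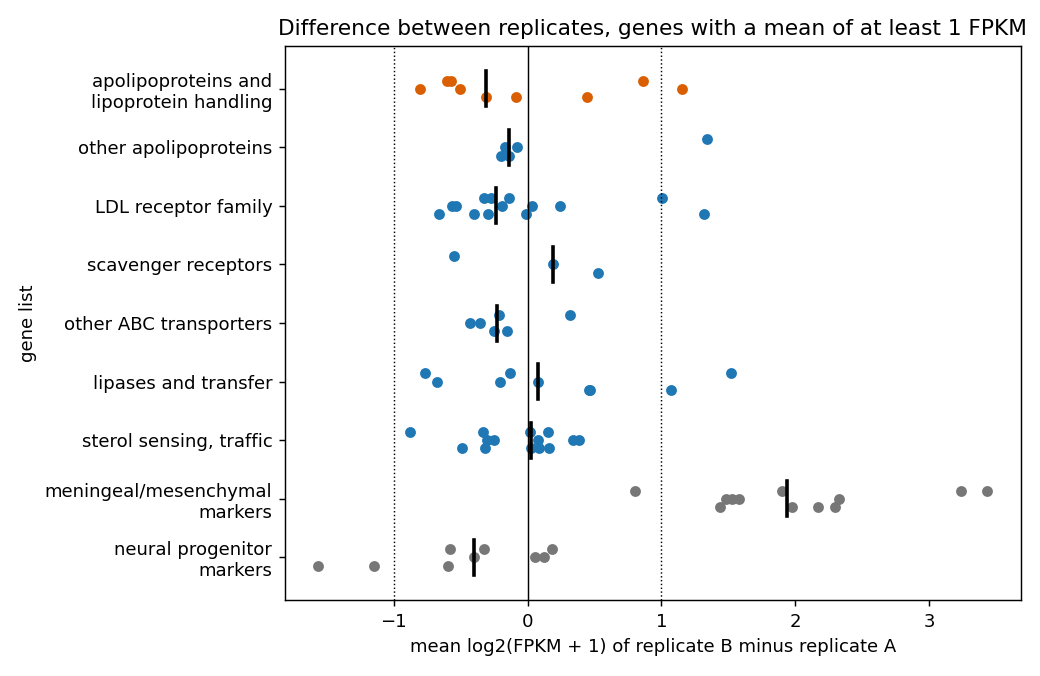
Difference of B minus A in mean log2(FPKM + 1) for each gene whose mean reached 1 FPKM (points), by list, with a bar at the median of the list and dotted lines at the limit of 1 in each direction. *Apod* is the member past the limit at 1.15, and the meningeal and mesenchymal markers lie furthest to the right, with a median of 1.94.

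Genes with the pattern most like that of *Apoe* and *Apod* were found among the 6630 genes whose mean reached 10 FPKM. The measure was the Euclidean distance between centred log2(FPKM + 1) values over the 4 libraries, which are 2 replicates only and differ in depth and in marker levels as given above. Nearest to *Apoe* were *Crot* at a distance of 0.0484, *RGD1564664* at 0.0684, *Camk2n1* at 0.0923, *Zfyve21* at 0.133 and *Resp18* at 0.135, and 582 genes lay within 0.5. *Crot*, a carnitine acyltransferase of peroxisomes, was at 31.5, 33.8, 36.3 and 18.7 FPKM in A1, A2, B1 and B2, so it was lowest in B2 as *Apoe* was. Nearest to *Apod* were *Loxl1* at 0.124, *Tubb6* at 0.146, *Tfpi* at 0.177, *Oxct1* at 0.196 and *Nol3* at 0.207, and 76 genes lay within 0.5. *Loxl1*, an enzyme that cross-links elastin, was at 73.3, 77.3, 119 and 271 FPKM, highest in B2 as *Apod* was.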

How the data were processed

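PolyA RNA of 2 biological replicates was sequenced as 2 technical libraries each. Reads were mapped by the authors with STAR against rn6, and the tables have the layout of StringTie, although the methods name Rsubread and DESeq2 for expression values. Versions are not given in the sources used here. The deposited FPKM values were used unchanged and summed over rows of 1 gene name. The TPM values, also made by the authors, sum to 1000000 and served for shares and as an alternative. The deposited coverage signal is not scaled to depth. Read totals were not used.

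The 10 members and the gene lists were chosen with earlier results of these data known. Named list genes are the 3 highest by mean FPKM in each list and those that differed, a few of which are not reported here; the collagen gene, *Gfap*, *Sox2*, *Alb*, *Nr1h3*, *Ptprc*, *Cx3cr1*, other markers and cluster neighbours were added after their values were seen. With 1 condition and 2 replicates no p-value was computed, and the labels call A and B biological replicates without saying what was kept separate. Alternatives were TPM, another pseudocount, limit and scaling, and libraries left out. The counting was tested on simulated data. Promoter windows came from RefSeq (GRCr8). Python 3.11.15, pandas 2.3.3, numpy 2.4.6 and matplotlib 3.10.9 were used.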

Additional observations from a re-analysis of the deposited data

Results flagged for a closer look

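The 4 libraries were compared for the 10 members, 23 genes of the lists and 9 other genes given for all 4 libraries. With 7 shares and ratios these made 49 values in all. In 6 of them the gap between an extreme library and the next, divided by the range, was above Dixon's critical value for 4 samples, and in 3 of the 6 that library was B2. Chance gives about 1 in 20 for independent samples. These are pairs of technical libraries and some of the values share genes, so this rate need not hold here. *Apoc1* was at 11.2 FPKM in B2 and at 26.6 to 28.8 in the others. The share of *Apoe* in the summed level of the 10 genes was 66.0% in B2 and 85.0% to 86.9% in the others. That of *Apod* was 23.0% in B2 and 5.07% to 6.98% in the others, and that of *Clu* was 3.57% in B1 and 6.58% to 6.74% in the others. *Pltp* was at 37.7 FPKM in B1 and at 83.0 to 90.7 in the others. *Lrpap1* was at 57.4 FPKM in A1 and at 60.1 to 60.5 in the others.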

How the results depend on the processing

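The rank of *Apoe* by mean level was 9, and between 6 and 15 with replicates or libraries left out. With coverage scaled by library depth, an alternative chosen after seeing the data, it was 15. The number of members that differed was 1 with FPKM, 2 with TPM (*Apod* and *Lpl*), and 3 (*Apod*, *Apoa1* and *Lpl*) with a pseudocount of 0.1 or with a log2 limit of 0.58. With libraries left out it ran from 0 (without B2) to 2 (without B1, *Apod* and *Apoc1*). Of all genes, 6.15% differed with FPKM, 6.91% with TPM, 8.53% with a pseudocount of 0.1, 16.5% at a limit of 0.58, 5.50% without B2 and 8.47% without B1. Of the 51 pathway genes examined 5 differed, and 9 at a limit of 0.58, where 5 were higher in B and 4 in A. Without B2, *Mylip* and *Plin2* were higher in B, and the genes higher in A included *Pltp*, *Insig1* and *Cyp46a1*. *Pltp* and *Insig1* were low in B1 but not in B2, and *Cyp46a1* was lower in both libraries of B. Over all genes, 645 differed, and 1732 at a limit of 0.58. The log2 difference of *Apoe* was -0.31, and 0.18 without B2. That of *Apoc1* was -0.60, and 0.04 without B2. The causes were not tested. TPM gave no value for mean FPKM levels. No paired analysis was possible because the series has 1 condition with expression tables and no test was made.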
